A study of Homo sapiens with 11 samples.

Results

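What A8 still did to the transcripts of HEK293T cells when ISRIB was present was read from 5 of the 11 libraries of the series. They are 3 libraries of cells given A8 with ISRIB (numbered 1 to 3) and 2 of cells given the vehicle DMSO with ISRIB (called a and b). They were chosen by their treatment labels, and no measured value entered the choice. The other 6 libraries, 3 of DMSO and 3 of A8 without ISRIB, give the effect of A8 in the absence of ISRIB. HEK293T is an established line from human embryonic kidney cells with SV40 large T antigen, and each group was grown from this 1 line. A8 was given at 10 µM. The concentration of ISRIB is not given in the sources used here. Treatment lasted 8 h according to the titles but 4 h according to the protocol, and which is right cannot be told from the labels. The submitters left out a further DMSO with ISRIB replicate for poor quality. The labels call the replicates biological but do not say whether they came from separate cultures on separate days, so the p-values measure the spread between these libraries.

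The series title links A8 to RIG-I, a sensor of viral RNA in the cytosol, and to the integrated stress response. In that response, stress kinases phosphorylate the initiation factor eIF2, which then blocks its exchange factor eIF2B. Bulk translation falls while the transcription factor ATF4 is made, and ATF4 with partners of the C/EBP family induces genes of amino acid supply, tRNA charging and stress signalling. ISRIB binds eIF2B and keeps it active, which blunts the response. A separate sensor of the cell's energy state is the pair MondoA and MLX. This pair binds carbohydrate response elements when glucose phosphates are plentiful, and TXNIP and ARRDC4, both of the alpha-arrestin family and both brakes on glucose uptake, are its best-known targets.

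The libraries held 34072107 to 35318111 counts over genes and 17892 to 18017 genes with a count. Levels are given in CPM, counts scaled by the size and the TMM factor of each library, where TMM corrects the total for a few genes that take a large share. In the shallowest library 3 counts, the limit that a count of 0 allows, come to 0.0880 CPM, which covers counting error only. All 10 transcripts listed as expressed in HEK293 cells were tested, among them PAX2, LIN28B and the neurofilaments, and their summed level was 1035 to 1129 CPM with DMSO and ISRIB and 1090 to 1118 CPM with A8 and ISRIB. Of 24 markers of other cell types, 7 were at 0 in every library (PTPRC, CD3E, PECAM1, HBB, INS, KRT5 and SFTPC), and the summed level of the list was 23.0 to 23.3 CPM with DMSO and ISRIB and 21.3 to 24.7 CPM with A8 and ISRIB. A8 with ISRIB 3 stood apart, with 14.2% of its counts on mitochondrial genes (8.50 to 12.6% in the other 10 libraries) and a TMM factor of 0.938 (0.985 to 1.02 in the others). Levels followed the GC content of transcripts to a degree that differed between libraries. The Spearman correlation of a library's relative level with GC content across genes was -0.21 and -0.41 with DMSO and ISRIB, -0.14, 0.02 and 0.24 with A8 and ISRIB, 0.45, 0.20 and -0.01 with DMSO, and 0.14, -0.20 and -0.19 with A8. For this reason fold changes are also given with each library's GC trend removed where that matters. One pair of symbols set 3 of the 5 libraries under ISRIB apart. NBL1 had 0 counts in A8 with ISRIB 3 and in both DMSO with ISRIB libraries and 479 to 652 in the other 8, while the readthrough symbol MINOS1-NBL1 had 603 to 649 in those 3 and 128 to 172 in the other 8. Among the 12660 tested genes with a mean of at least 50 counts, these 2 symbols were the only ones in which those 3 libraries lay apart from the other 8 by at least 2 times. Whether these 3 libraries, both controls and 1 of 3 A8 libraries, were counted with another setting or annotation is not known, and smaller effects of this on the fold changes under ISRIB were not tested.

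The stretches upstream of the start sites of 4 genes are shown because they set the 2 kinds of response side by side. TXNIP and ARRDC4 had the largest falls among the genes called when both states were averaged, and CHAC1 and ASNS are ATF4 targets that A8 raised without ISRIB and that were not called with it. Each run holds the 250 bases before a start site in RefSeq (GRCh38.p14), read 5′ to 3′ on the gene's strand. Capitals mark the carbohydrate response element in TXNIP, an E-box in ARRDC4, and the C/EBP-ATF response element in CHAC1 and ASNS.

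TXNIP, chr1:145996580-145996829, strand -: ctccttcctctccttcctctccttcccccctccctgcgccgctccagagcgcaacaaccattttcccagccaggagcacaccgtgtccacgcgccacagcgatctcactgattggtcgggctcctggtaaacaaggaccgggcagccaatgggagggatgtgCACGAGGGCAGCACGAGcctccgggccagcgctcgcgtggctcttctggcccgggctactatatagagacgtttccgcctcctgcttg
ARRDC4, chr15:97960453-97960702, strand +: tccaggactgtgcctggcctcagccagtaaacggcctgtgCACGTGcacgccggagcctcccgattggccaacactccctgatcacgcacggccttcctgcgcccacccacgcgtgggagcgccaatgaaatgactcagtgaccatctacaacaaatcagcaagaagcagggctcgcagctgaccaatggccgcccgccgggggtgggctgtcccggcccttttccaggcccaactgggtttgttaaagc
CHAC1, chr15:40953221-40953470, strand +: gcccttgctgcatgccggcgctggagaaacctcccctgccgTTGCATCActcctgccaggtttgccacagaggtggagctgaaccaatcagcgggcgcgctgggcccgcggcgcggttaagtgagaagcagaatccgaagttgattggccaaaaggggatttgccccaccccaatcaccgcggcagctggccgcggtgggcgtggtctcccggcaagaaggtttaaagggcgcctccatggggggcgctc
ASNS, chr7:97872409-97872658, strand -: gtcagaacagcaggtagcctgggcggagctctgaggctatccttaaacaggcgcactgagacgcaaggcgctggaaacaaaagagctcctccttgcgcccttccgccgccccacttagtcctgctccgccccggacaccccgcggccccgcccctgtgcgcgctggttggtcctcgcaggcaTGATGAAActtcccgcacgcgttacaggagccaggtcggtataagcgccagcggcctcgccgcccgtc

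The carbohydrate response element was searched as CACGNGNNNNNCNCGNG, a pair of E-box-like sites 5 bases apart, the E-box as CACGTG and the C/EBP-ATF response element as TGATGNAA, each on both strands. In TXNIP the element began 88 bases before the start site. In ARRDC4 an E-box stood 210 bases upstream, and the paired element was not in this window. In ASNS the C/EBP-ATF element began 68 bases upstream, and in CHAC1 it lay on the other strand, 209 bases upstream. Of 35116 RefSeq promoters cut to the same length, 0.424% held the paired element, 6.34% the E-box and 3.14% the C/EBP-ATF element. Among the 32 of 44 genes named for being called that had a promoter in the table, TXNIP held the only paired element, TPRA1, SLC43A1, EIF4B and HSP90B1 also held an E-box, and no further gene held the C/EBP-ATF letters. These matches describe sequence and were not tested for binding.

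With ISRIB present, A8 lowered TXNIP and raised PTP4A3, and no other gene passed the test. TXNIP, which binds thioredoxin and restrains glucose uptake, was at 9.39 and 10.5 CPM in the DMSO with ISRIB libraries and at 2.98, 3.83 and 4.79 CPM in those of A8 with ISRIB. The groups did not overlap. The A8 library nearest the controls, at 4.79 CPM, was A8 with ISRIB 3, which shares the zero count of NBL1 with them. Whether the way of counting bears on the level of TXNIP was not tested. The fall of TXNIP was -1.37 in log2 units (SE 0.17, 95% interval -1.72 to -1.02, adjusted p = 0.00412 in edgeR). An adjusted p is corrected over all genes tested, and a gene counts as called under 0.05. In bulk RNA, fewer cells that hold a transcript and less of it per cell cannot be told apart. These 2 genes are 0.0128% of the 15591 tested (0.00641% in each direction), while 740 genes (4.75%) were higher and 557 (3.57%) lower at an unadjusted p under 0.05. The DESeq2 Wald test, which called TXNIP and PTP4A3 too, called 43 genes higher and 18 lower.

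Without ISRIB TXNIP also fell. Levels were 9.10, 10.4 and 8.97 CPM with DMSO and 4.93, 4.13 and 3.92 CPM with A8, which is -1.13 on the log2 scale (SE 0.15). The difference between both effects was -0.24 (95% interval -0.71 to 0.24), so the interval leaves out a fall that is smaller by more than 0.24 with ISRIB. Averaged over both states, TXNIP fell by 1.25 (adjusted p = 5.57e-05 in edgeR), a call that held whichever of the 11 libraries was left out. The call with ISRIB alone was made in 9 of these 11 fits and was lost without DMSO with ISRIB b or without A8 with ISRIB 2, with fold changes from -1.55 to -1.21 over all 11. With the GC trend removed the fold change was -1.33.

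ARRDC4, the arrestin closest to TXNIP in its regulation, followed the same pattern. Its levels were 10.3 and 9.53 CPM with DMSO and ISRIB and 5.88, 4.91 and 6.01 CPM with A8 and ISRIB. The groups lay well apart, and the log2 fold change was -0.82 (SE 0.13, 95% interval -1.11 to -0.54), just short of a call (adjusted p = 0.0584 in edgeR). The DESeq2 Wald test called ARRDC4 with ISRIB (adjusted p = 0.000138). In edgeR it was called with no filter on low counts (adjusted p = 0.00115) and in a robust fit (adjusted p = 0.0404). It was not called in edgeR with only the groups compared (adjusted p = 0.235) or with the GC trend removed (adjusted p = 0.107). Without ISRIB the levels were 9.07, 7.60 and 9.48 CPM with DMSO and 5.16, 5.80 and 5.36 CPM with A8 (log2 fold change -0.68), and the 2 effects differed by -0.14 (95% interval -0.53 to 0.24). Averaged over both states ARRDC4 fell by 0.75 (adjusted p = 0.000847 in edgeR), in each of the 11 fits without 1 library.

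The rest of this system held no further call under ISRIB. Of 6 alpha-arrestins 5 could be tested, and ARRDC1, ARRDC2 and ARRDC3 had log2 fold changes of 0.11, 0.35 and 0.12 with ISRIB. At an unadjusted p under 0.05, 1 of the 5 was higher with ISRIB and 2 were lower, against 4.75% and 3.57% of all genes. The largest fold change of the 5 without ISRIB was 0.02. Of 11 known glucose-responsive targets 8 could be tested. Among them the lipid synthesis genes FASN, ACACA, ACACB and SCD lay between -0.05 and 0.08, PPP1R3B, a glycogen-targeting subunit, was at -0.23, and KLF10, a glucose-induced repressor, was at 0.34. KLF10 stood at 25.7 CPM in both DMSO with ISRIB libraries and at 35.1, 32.0 and 30.2 CPM with A8 and ISRIB, and its effect without ISRIB was 0.35. The average of both rose by 0.34 (adjusted p = 0.0476 in edgeR), the direction opposite to TXNIP. None of 24 genes of glucose uptake and glycolysis had an unadjusted p under 0.05, and their median log2 fold change was 0.01 (-0.02 when A8 with ISRIB 3 was left out, 0.05 when library 1 of that group was). Of 12 Mondo, MLX, MAX and MYC family factors, MYC alone had one (log2 fold change 0.23), against 4.75% of all genes higher. MLXIP, which encodes MondoA, was at 0.09 and MLX at 0.09. MYCN had the fold change farthest from 0, -1.41, but was near the limit of counting, at 0.223, 0 and 0.188 CPM with A8 and ISRIB and 0.289 and 0.447 CPM with DMSO and ISRIB. Apart from TXNIP itself, none of the 13 genes of the thioredoxin system had an unadjusted p under 0.05.

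**Figure D1:**
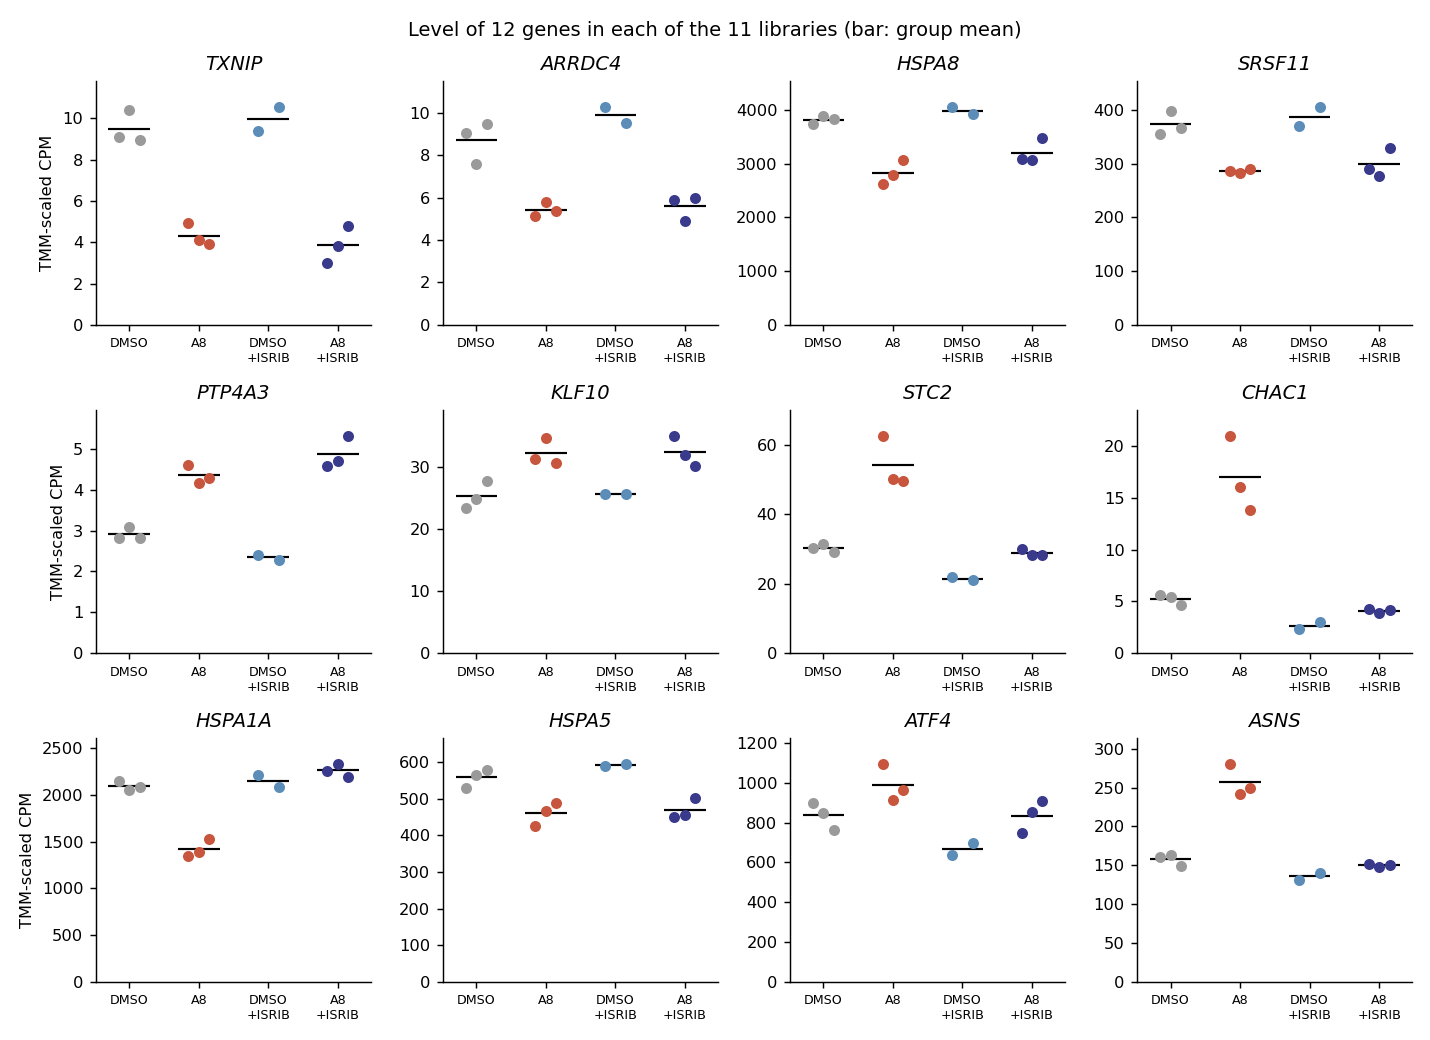
Level of 12 genes in each of the 11 libraries, in TMM-scaled CPM from 0, with 1 point per library and a bar at the group mean. TXNIP, ARRDC4, HSPA8 and SRSF11 were lower with A8 in both states, PTP4A3 and KLF10 higher in both, while CHAC1 and ASNS rose and HSPA1A fell without ISRIB and were not called with it.

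PTP4A3 was the 1 gene that rose. It encodes PRL-3, a small phosphatase that binds the CNNM magnesium transporters. Its levels were 2.40 and 2.29 CPM with DMSO and ISRIB and 4.57, 4.71 and 5.32 CPM with A8 and ISRIB. Every A8 library lay above both controls, and the log2 fold change was 1.05 (SE 0.16, 95% interval 0.72 to 1.39, adjusted p = 0.0379 in edgeR). Without ISRIB it went from 2.83, 3.10 and 2.82 CPM to 4.61, 4.16 and 4.30 CPM, a log2 fold change of 0.58 that was not called (adjusted p = 0.127 in edgeR). The effect with ISRIB was larger by 0.47 (95% interval 0.03 to 0.92), a difference that did not pass the adjusted test (adjusted p = 0.573 in edgeR). The call with ISRIB held in 3 of the 11 fits without 1 library (those without DMSO 1, DMSO 3 or A8 with ISRIB 3) and not with the GC trend removed (log2 fold change 0.96, adjusted p = 0.0754 in edgeR), whereas that of the average (0.82, adjusted p = 0.00162) held in all 11. The other PRL phosphatases, PTP4A1 and PTP4A2, had log2 fold changes of 0.09 and -0.06, and the CNNM genes lay between -0.10 and 0.08.

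A constitutive chaperone, a splicing factor and a membrane protein made up a second group that fell over both states. HSPA8, the constitutive cytosolic HSP70, was at 4053 and 3920 CPM with DMSO and ISRIB and at 3079, 3069 and 3472 CPM with A8 and ISRIB, a log2 fold change of -0.31 (SE 0.08). All 3 A8 libraries lay below both controls. Without ISRIB the change was -0.43, and the difference between both was 0.12 (95% interval -0.10 to 0.34). SRSF11, an SR-type splicing factor, went from 370 and 405 CPM to 289, 278 and 328 CPM with ISRIB, a log2 fold change of -0.38 (SE 0.08), and the change without ISRIB was -0.38 too. TPRA1, a membrane protein, had -0.28 with ISRIB and -0.38 without it. None of these 3 was called with ISRIB alone (adjusted p from 0.185 to 0.321 in edgeR). Their averages over both states fell, by 0.37, 0.38 and 0.33 (adjusted p = 0.00311, 0.0022 and 0.00727), and left-out libraries ended only the call of TPRA1, in 1 of 11 fits.

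The stress-inducible HSP70 genes behaved otherwise. HSPA1A was at 2212 and 2088 CPM with DMSO and ISRIB and at 2257, 2329 and 2196 CPM with A8 and ISRIB, so the groups overlapped and the log2 fold change was 0.07 (95% interval -0.08 to 0.22). Without ISRIB it went from 2144, 2050 and 2078 CPM to 1350, 1392 and 1532 CPM, a fall of 0.55. The difference between both effects was 0.63 (95% interval 0.43 to 0.83, adjusted p = 0.0243 in edgeR). HSPA1B gave a difference of 0.64 with the same adjusted p, but it is a near-identical copy, and how reads were split between the pair is not known. DNAJB1, their co-chaperone, had 0.02 with ISRIB and -0.34 without it, a difference of 0.36 that was not called (adjusted p = 0.267 in edgeR). With the GC trend removed the differences of HSPA1A and HSPA1B were 0.52 and 0.54 and were no longer called (adjusted p = 0.161 and 0.127). Over the whole list of 18 heat shock genes with ISRIB, 6 had an unadjusted p under 0.05, all lower (HSPA8, HSPH1, DNAJA1, HSP90AA1, HSPA4L and CHORDC1), against 3.57% of all genes, and none was called. The median was -0.11 with ISRIB and -0.13 without it, against 0.002 and 0.007 over all genes, and -0.05 with ISRIB once the GC trend was removed. Single controls moved it, to -0.008 without DMSO with ISRIB b and -0.17 without DMSO with ISRIB a.

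The 2 main chaperones of the endoplasmic reticulum fell on average over both states. HSPA5, the lumenal HSP70 known as BiP, was at 590 and 595 CPM with DMSO and ISRIB and at 451, 455 and 501 CPM with A8 and ISRIB. The log2 fold change was -0.34 (SE 0.07, adjusted p = 0.211 in edgeR) with ISRIB and -0.28 without it, and the average fell by 0.31 (adjusted p = 0.0108). HSP90B1, the lumenal HSP90, had -0.33 with ISRIB and -0.15 without it, and its average fell by 0.24 (adjusted p = 0.0476). The average call of HSPA5 was made in 7 of the 11 fits without 1 library and lost without either DMSO with ISRIB library, A8 with ISRIB 2 or DMSO 2. That of HSP90B1 was made in 2, those without A8 3 and without A8 with ISRIB 3. Of 13 chaperone genes of the ATF6 arm, 11 were below 0 with ISRIB (49.5% of all genes were), 8 had no overlap with all A8 libraries lower (12.3% of all genes had) and 7 were lower at an unadjusted p under 0.05 (3.57% of all genes were), among them CALR, CANX, PDIA4, PDIA6 and DNAJB11. None was called. Their median was -0.16 with ISRIB, -0.14 with the GC trend removed and -0.14 without ISRIB. HERPUD1 and SDF2L1 were the 2 above 0, at 0.10 and 0.12. In 14 genes of the XBP1 arm and of degradation from the endoplasmic reticulum, the median was -0.06 with ISRIB (-0.13 without DMSO with ISRIB a, -0.03 without b) and 0.02 without ISRIB, and 1 had an unadjusted p under 0.05.

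Of the splicing factors, 14 SR proteins, their relatives and CLK kinases were tested. With ISRIB 12 of them were below 0 (49.5% of all genes were), and SRSF11, SRSF6 (-0.21) and the kinase CLK1 (-0.25) were lower at an unadjusted p under 0.05 (3.57% of all genes were). HNRNPH1, a splicing regulator outside this list, had -0.28 with ISRIB and -0.22 without it, and the average fell by 0.25 (adjusted p = 0.0476 in edgeR), a call made in 2 of the 11 fits without 1 library, those without A8 3 and without A8 with ISRIB 3. Leaving out A8 with ISRIB 3 made SRSF11 a call with ISRIB alone (-0.45), together with ARRDC4 (-0.88), HSP90B1 (-0.39) and MAP2K6, a kinase of the p38 pathway (-0.73). NOP58, SNRPB2, ZNF703 and ZNF358, chosen after their values were seen, and CDC42EP1 were called there too, giving 5 genes higher and 8 lower in all. Those 13 include NBL1 and MINOS1-NBL1. In this fit both A8 libraries have NBL1 counts and both controls have none, so how the pair was counted and the treatment cannot be told apart.

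No gene of the integrated stress response was called under ISRIB. The largest fold changes there were in a list of 20 regulators and other stress genes, such as STC2 and CHAC1. STC2, a secreted stress glycoprotein, was at 21.8 and 20.9 CPM with DMSO and ISRIB and at 30.1, 28.3 and 28.4 CPM with A8 and ISRIB. The groups did not overlap, and the log2 fold change was 0.44 (SE 0.10, adjusted p = 0.251 in edgeR) against 0.84 without ISRIB, where the levels reached 49.5 to 62.6 CPM. CHAC1, which degrades glutathione, went from 2.34 and 2.99 CPM to 4.29, 3.86 and 4.16 CPM with ISRIB, a log2 fold change of 0.62 (95% interval 0.21 to 1.03). Without ISRIB it went from 5.62, 5.40 and 4.64 CPM to 20.99, 16.0 and 13.8 CPM, so the level with A8 and ISRIB lay below plain DMSO. The difference between both effects was -1.08 (95% interval -1.59 to -0.57, adjusted p = 0.241 in edgeR). SESN2, a leucine-binding brake on mTORC1, had 0.23 with ISRIB and 0.63 without it.

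NUPR1, a small stress-induced chromatin protein, was at 0.404 and 0.252 CPM with DMSO and ISRIB and at 0.781, 1.11 and 0.845 CPM with A8 and ISRIB. Its log2 fold change was 1.47 (95% interval 0.66 to 2.28) with ISRIB and 1.39 without it. The difference of 0.08 has an interval from -0.85 to 1.00, and the controls with ISRIB held 9 to 14 counts. ATF4 itself was at 638 and 696 CPM with DMSO and ISRIB and at 746, 852 and 908 CPM with A8 and ISRIB, a log2 fold change of 0.32 (95% interval 0.12 to 0.53, adjusted p = 0.368 in edgeR), against 0.24 without ISRIB. CEBPB, a partner of ATF4, had 0.47 and 0.20, and PPP1R15A, which recruits the phosphatase of eIF2, 0.33 and 0.25. KLHL24 had 0.45 and 0.38. None of these differences between states was called.

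Most genes of amino acid supply had fold changes near 0 under ISRIB. ASNS, the asparagine synthetase, was at 131 and 140 CPM with DMSO and ISRIB and at 152, 147 and 151 CPM with A8 and ISRIB. The A8 libraries lay just above the controls, with a log2 fold change of 0.14 (95% interval -0.01 to 0.30) against 0.70 without ISRIB, and the difference of -0.56 was not called (adjusted p = 0.0766 in edgeR). PSAT1, of serine synthesis, was at 81.9 and 84.9 CPM and at 77.5, 79.2 and 77.7 CPM, a log2 fold change of -0.09 against 0.53. Its difference of -0.62 was called (adjusted p = 0.0243). SLC6A9, a glycine transporter, was at 15.9 and 17.8 CPM and at 16.8, 17.96 and 17.2 CPM, a log2 fold change of 0.04 (95% interval -0.21 to 0.29) against 0.99, and its difference of -0.95 was called too (adjusted p = 0.0443). MTHFD2 of mitochondrial folate metabolism had 0.02, CTH of cysteine synthesis 0.04, and the tRNA synthetases CARS and GARS -0.00 and 0.05. The 4 called differences (PSAT1, SLC6A9, HSPA1A and HSPA1B) are 0.0257% of genes tested, and with the GC trend removed only that of SLC6A9 remained (adjusted p = 0.0467). No interaction was called without A8 1 or 2, A8 with ISRIB 1 or 2, DMSO 2 or DMSO with ISRIB b.

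Counted over lists, 8 of the 20 regulators and other stress genes had an unadjusted p under 0.05 with ISRIB, all higher, against 4.75% of all genes. No overlap with all A8 libraries higher was found for 10 of the 20, against 12.8% of all genes. Their median log2 fold change was 0.23 with ISRIB and 0.39 without it. Of 14 genes of amino acid synthesis none had, and medians were 0.03 and 0.36. Of 10 transporters 1 had (SLC43A1, 0.27), with medians of 0.05 and 0.45, and of 13 tRNA synthetases 1 (AARS, 0.16), with medians of 0.01 and 0.24. SLC7A11 had the largest fold change of the transporters with ISRIB, 0.39, at an unadjusted p of 0.05 or more. Over these 57 genes none was called with ISRIB, 43 were above 0 (50.5% of all genes were), and the medians were 0.06 with ISRIB and 0.33 without it. Under ISRIB the median of the 20 regulators and other stress genes ran from 0.20 to 0.28 over the fits without 1 library. The other medians moved by over 1.5 times when 1 library was left out. Without A8 with ISRIB 3 they were 0.15 for transporters, 0.05 for synthesis, 0.03 for tRNA synthetases and 0.11 for the 57 genes, without A8 with ISRIB 1 that of transporters was 0.007, and without DMSO with ISRIB a or b that of tRNA synthetases was -0.04 or 0.03. Differences between the 4 lists were not tested.

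**Figure D2:**
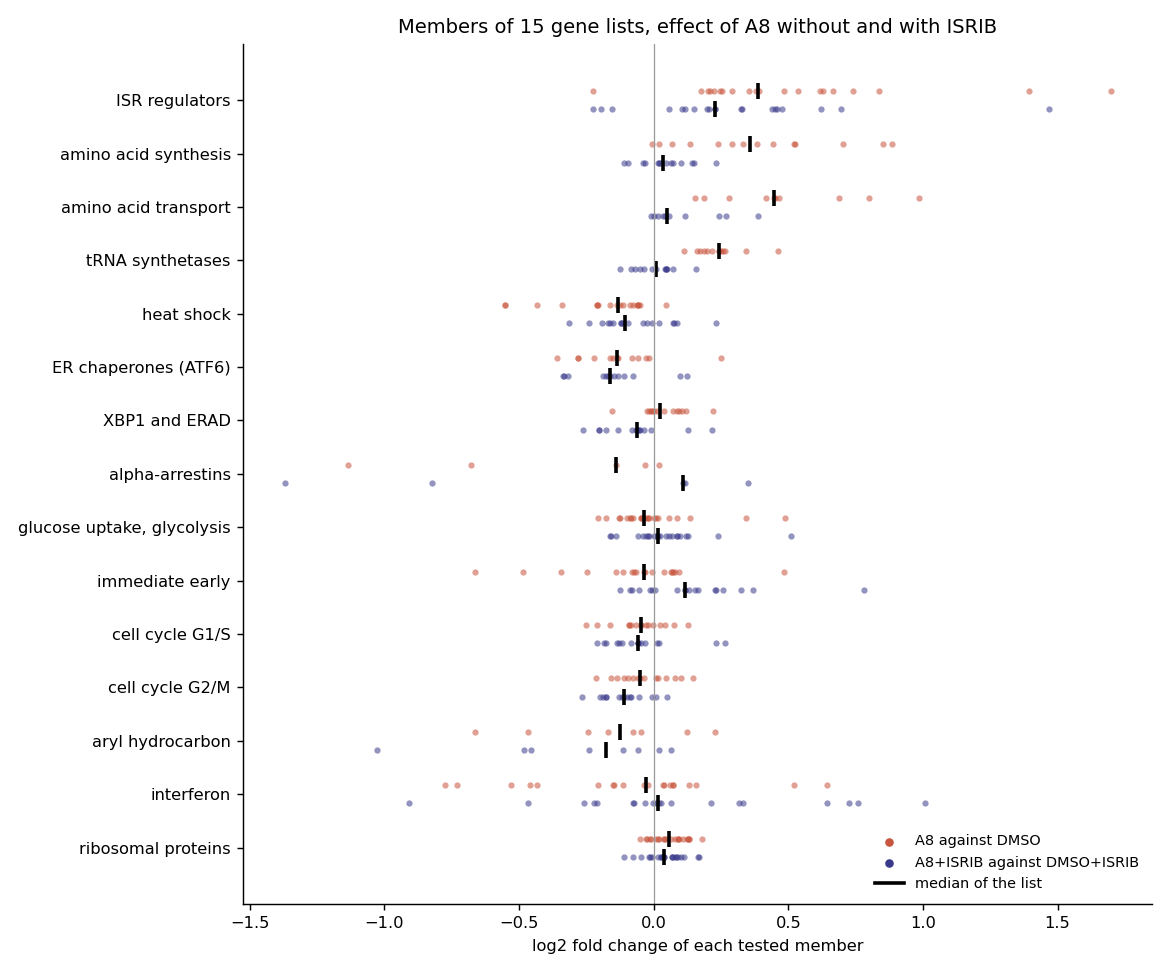
Log2 fold change of each tested member of 15 gene lists for A8 against DMSO (red) and A8 with ISRIB against DMSO with ISRIB (blue), with a black bar at each list's median. The medians of amino acid synthesis and transport are 0.03 and 0.05 with ISRIB (0.05 and 0.15 without A8 with ISRIB 3) against 0.36 and 0.45 without it, while those of the ER chaperones are -0.16 and -0.14. The list labelled ISR regulators also holds other stress genes, such as STC2 and CHAC1.

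A8 against DMSO shares no library with the comparison under ISRIB, so the fold changes of the genes it picks can be read there. The spread was estimated over all 11 libraries in 1 fit, so the choice is not independent of the p-values under ISRIB. Without A8 with ISRIB 3, A8 against DMSO called 33 genes higher and 17 lower. With all 11 libraries it called 22 genes (0.141%), 13 higher (0.0834%) and 9 lower (0.0577%). Of the 13 higher ones, 11 were above 0 under ISRIB (50.5% of all genes were). An unadjusted p under 0.05 was found for 4 of them (CHAC1, NUPR1, STC2 and SESN2), against 4.75% of all genes higher. The medians of the 13 were 0.84 without ISRIB, a value raised by the choice, and 0.14 with it. Of the 9 lower ones, 5 were below 0 under ISRIB (49.5% of all genes were), and 4 were not (HSPA1A, HSPA1B, DNAJB1 and LOC101927883). Each of the 5 (TXNIP, ARRDC4, HSPA8, SRSF11 and TPRA1) had an unadjusted p under 0.05 and no overlap. Of all genes 3.57% were lower at that p, and 12.3% had no overlap with all A8 libraries lower. Across all 15591 genes the 2 sets of fold changes had the same sign in 50.3% and a Pearson correlation of 0.12 (Spearman 0.05). With the GC trend removed these were 0.15 and 0.17.

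**Figure D3:**
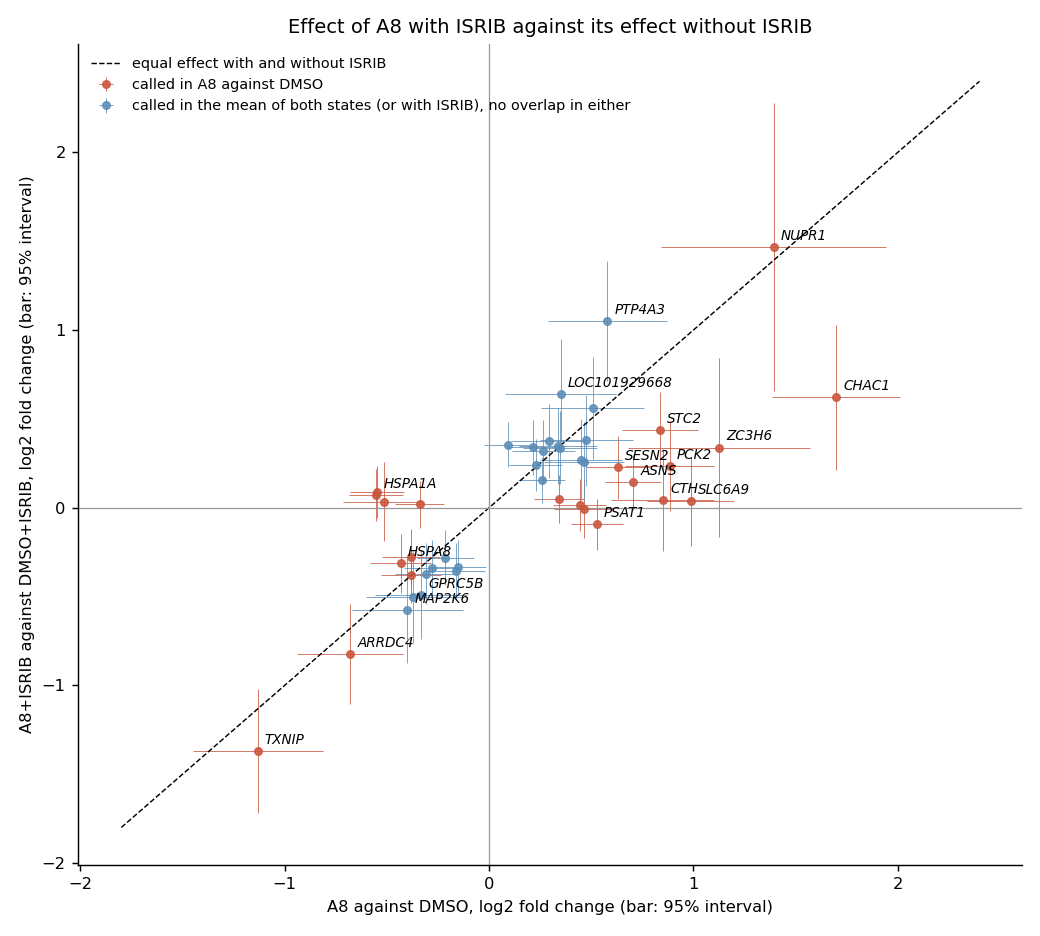
Log2 fold change of A8 with ISRIB (vertical) against that without ISRIB (horizontal), with 95% intervals, for genes called in A8 against DMSO (red) and genes called in the average of both states or with ISRIB that had no overlap in either state (blue). The dashed line marks equal effects, and TXNIP at -1.37 and -1.13 and ARRDC4 at -0.82 and -0.68 lie near it, whereas SLC6A9 at 0.04 and 0.99 lies near the horizontal axis.

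The average of both states was tested to find genes that A8 moved alike in both, though a large effect in 1 state can carry it. It called 37 genes (0.237%), 22 higher (0.141%) and 15 lower (0.0962%). There were 5 and 5 without DMSO with ISRIB a, 7 and 5 without DMSO with ISRIB b, 7 and 6 without A8 with ISRIB 2, 8 and 6 without A8 1, 9 and 6 without DMSO 2 and 56 and 47 without A8 with ISRIB 3. Of the 37, 33 also had no overlap in the same direction in both states, 20 higher and 13 lower, against 1.44% and 1.18% of all genes. That they share a direction follows from this choice. The 37 were picked on the same libraries, which favours genes without overlap, so 33 of 37 cannot be compared with those shares. Among the 20 higher genes 7 had an interaction with an unadjusted p under 0.05, and among the 13 lower genes 0 did. The share over all genes was 8.48%. The choice also limits how far the 2 effects of a gene can differ, so these counts cannot be compared with that share. No interaction of the 33 passed the adjusted test.

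The higher genes included ST3GAL3, a sialyltransferase. It was at 8.92 and 9.70 CPM with DMSO and ISRIB and at 16.0, 13.6 and 11.6 CPM with A8 and ISRIB. Its log2 fold changes were 0.56 with ISRIB and 0.51 without it, and the average rose by 0.53 (adjusted p = 0.0185 in edgeR). CPNE1, a calcium-dependent membrane-binding protein, went from 105 and 109 CPM to 140, 132 and 136 CPM with ISRIB, and its average rose by 0.28 (adjusted p = 0.0231). EIF4B, a cofactor of the helicase in translation initiation, had 0.24 with ISRIB and 0.23 without it (average adjusted p = 0.0476). CDC42EP1, an effector of the small GTPase CDC42, leaned to 1 state, with 0.35 under ISRIB, 0.09 without it and a difference of 0.26 (95% interval 0.09 to 0.43). The average calls of ST3GAL3 and CPNE1 were each made in 6 of the 11 fits without 1 library, that of CDC42EP1 in 4, and those of EIF4B and KLF10 in 2.

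Among the lower genes, PCDH9, a protocadherin, was at 84.0 and 84.2 CPM with DMSO and ISRIB and at 65.3, 66.3 and 63.3 CPM with A8 and ISRIB, and its average fell by 0.34 (adjusted p = 0.011 in edgeR). GPRC5B, an orphan receptor, went from 11.3 and 12.4 CPM to 8.45, 8.54 and 8.30 CPM with ISRIB, TNFRSF10D, a decoy receptor for TRAIL, from 10.8 and 11.1 CPM to 7.11, 7.57 and 8.55 CPM, and MAP2K6 from 12.2 and 13.5 CPM to 7.36, 8.17 and 10.4 CPM. MGEA5, the enzyme that removes O-GlcNAc from proteins, went from 87.4 and 82.1 CPM to 65.6, 67.8 and 65.4 CPM. In each of these 5 genes no A8 library reached a control, with ISRIB or without it, which the choice of these genes required. The averages of GPRC5B, TNFRSF10D, MAP2K6 and MGEA5 fell by 0.41, 0.44, 0.49 and 0.26, each with an adjusted p of 0.0476 in edgeR. That of PCDH9 was called in 8 of the 11 fits without 1 library and those of the other 4 in 2, namely those without A8 3 and without A8 with ISRIB 3.

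Genes were also ranked by size among those whose mean log2 CPM was 1 or more, which leaves out NUPR1 and CYP1A1. The 10 largest rises with no overlap and an unadjusted p under 0.05 ran from 0.64 to 1.05 on the log2 scale. They included, beside PTP4A3, the genes PCAT6, VAX1, TMEM158, TMEM187, SFT2D3, LOC100289098, IRF7 and LOC100506713, none of which was called in the main edgeR fit. Among them the DESeq2 Wald test called TMEM158 (adjusted p = 0.00222) and SFT2D3 (adjusted p = 0.0464). TMEM158, a membrane protein induced by Ras, was at 6.50 and 6.88 CPM with DMSO and ISRIB and at 9.45, 11.8 and 10.7 CPM with A8 and ISRIB. The groups lay apart, but its log2 fold change of 0.67 (adjusted p = 0.132 in edgeR) stood against -0.06 without ISRIB, where both groups lay between 8.48 and 9.90 CPM. Of these 10 genes 7 were above 0 without ISRIB too (51.8% of all genes were), and PTP4A3, TMEM187 and LOC100289098 were among those with an unadjusted p under 0.05 there (10.2% of all genes had such a p, in either direction).

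Under the same limits on level, overlap and p, the 10 largest falls ran from -1.37 to -0.67. After TXNIP came RPL36A-HNRNPH2, DHRS2, ARRDC4, LOC101928371, PLXNC1, MAK, ZNF225, CGNL1 and HMCN1. RPL36A-HNRNPH2, a readthrough symbol, had 456 counts in DMSO with ISRIB b against 99 to 134 in the other 10 libraries. DHRS2, a short-chain dehydrogenase, was at 5.40 and 4.81 CPM with DMSO and ISRIB and at 2.23, 2.72 and 3.19 CPM with A8 and ISRIB. Every A8 library lay below both controls, with log2 fold changes of -0.91 with ISRIB (adjusted p = 0.223 in edgeR) and -0.48 without it. Its average fell by 0.70 (adjusted p = 0.0476), a call made in 3 of the 11 fits without 1 library. Without ISRIB 6 of the 10 genes were below 0 (48.2% of all genes were), and TXNIP, ARRDC4 and DHRS2 had an unadjusted p under 0.05 there.

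Other pathways held few changes under ISRIB. Among 19 immediate early genes, which growth factors and stress induce within minutes, JUN (0.33), JUND (0.37), MYC (0.23) and IER5 (0.26) were higher at an unadjusted p under 0.05 and none was lower, against 4.75% and 3.57% of all genes. JUN was at 328 and 333 CPM with DMSO and ISRIB and at 429, 423 and 392 CPM with A8 and ISRIB. The 3 A8 libraries lay above both controls, but without ISRIB the fold change was 0.08. The list's median was 0.12 with ISRIB, 0.07 with the GC trend removed and -0.03 without ISRIB. Of the 8 of 10 tested genes of the aryl hydrocarbon receptor, TIPARP (-0.45), a feedback inhibitor of the receptor, and CYP1A1 (-1.03), its classic target, were lower at an unadjusted p under 0.05 (3.57% of all genes were). CYP1A1 was near the limit of counting, at 0.312 to 0.877 CPM with A8 and ISRIB and 1.04 and 1.51 CPM with DMSO and ISRIB. The list's median was -0.18 with ISRIB (-0.08 without DMSO with ISRIB a, -0.36 without b) and -0.12 without ISRIB.

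Neither RIG-I nor an interferon gene was called. DDX58, which encodes RIG-I, was at 2.97 and 2.13 CPM with DMSO and ISRIB and at 2.09, 2.89 and 2.29 CPM with A8 and ISRIB. The groups overlapped, and the log2 fold change was -0.07 (95% interval -0.57 to 0.43). Of 32 interferon and antiviral genes 20 could be tested, with a median of 0.01 (0.04 without DMSO with ISRIB a or A8 with ISRIB 3, -0.01 without DMSO with ISRIB b). Their fold changes ran from -0.91 to 1.01, and the genes at both ends had an unadjusted p of 0.05 or more. Under 0.05 were 3 genes, IRF7 (0.64) higher and IFIT1 (-0.47) and TRIM25 (-0.26) lower, against 4.75% and 3.57% of all genes. Of 15 NRF2 targets, HMOX1 (0.34) was higher and GCLM (-0.22) lower at that level, against the same shares. HMOX1, the haem oxygenase, was at 74.4 and 70.1 CPM with DMSO and ISRIB and at 82.2, 96.9 and 94.6 CPM with A8 and ISRIB. The groups did not overlap, its fold change without ISRIB was 0.20, and the average of 0.27 was not called (adjusted p = 0.0757 in edgeR).

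Most genes of mitosis were below 0 under ISRIB. Of 15 G2/M genes 13 were below 0 (49.5% of all genes were), and CCNB1 (-0.18), the kinase AURKA (-0.26) and KIF20A (-0.18) were lower at an unadjusted p under 0.05 (3.57% of all genes were), with none called. AURKA was at 97.4 and 101 CPM with DMSO and ISRIB and at 78.7, 84.7 and 83.8 CPM with A8 and ISRIB, and its fold change without ISRIB was -0.10. The list's median was -0.11 with ISRIB, -0.10 with the GC trend removed and -0.05 without ISRIB. Among 16 G1/S genes 2 were higher and 5 lower at an unadjusted p under 0.05, against 4.75% and 3.57% of all genes. Of the 17 proteasome genes 15 were below 0 (49.5% of all genes were), with a median of -0.05 that was -0.12 without A8 with ISRIB 3. Ribosomal proteins had a median of 0.04 and nuclear genes of the respiratory chain one of 0.02, and both turned sign without A8 with ISRIB 3, to -0.05 each. None of either list had an unadjusted p under 0.05.

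**Figure D4:**
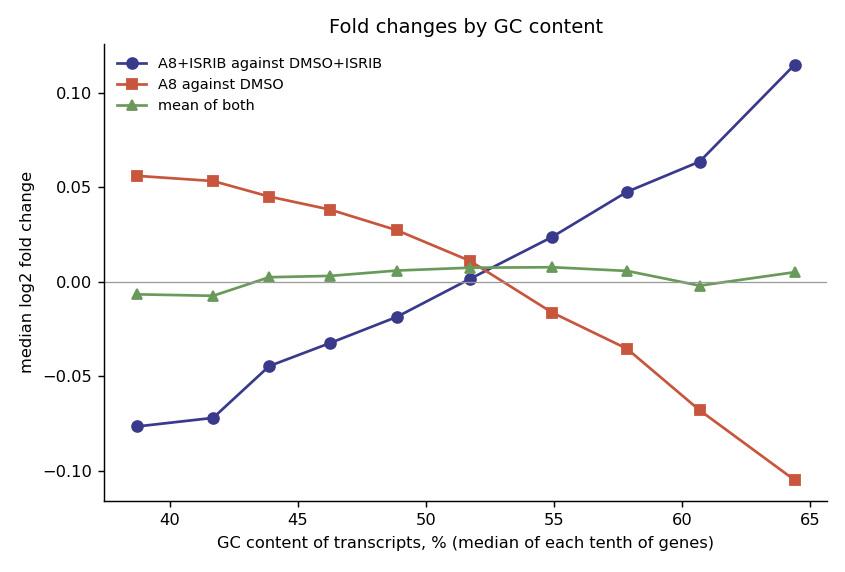
Median log2 fold change (vertical axis) of genes in 10 equal groups by the GC content of their transcripts in percent (horizontal axis), for A8 with ISRIB against DMSO with ISRIB (circles), A8 against DMSO (squares) and the average of both (triangles). The medians rise from -0.08 at 38.7% GC to 0.11 at 64.4% GC with ISRIB and go from 0.06 to -0.10 without it, while those of the average stay within 0.01 of 0.

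Fold changes under ISRIB followed GC content across genes, with a Spearman correlation of 0.34 for the 91.6% of genes that had a value, against -0.30 without ISRIB, 0.47 for the interaction and 0.03 for the average. Genes rich in G and C, such as PTP4A3 (62.6%), TMEM158 (66.9%) and CEBPB (66.2%), thus lie on the side of the trend that is higher with A8 and ISRIB. With the trend removed their log2 fold changes with ISRIB were 0.96, 0.54 and 0.35. TXNIP (46.2%) and ARRDC4 (43.4%) lie below the middle, with -1.33 and -0.77. The average effect, with the flattest trend of the 4, called 30 genes higher and 20 lower once the trend was removed.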

How the data were processed

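Polyadenylated RNA of HEK293T cells was sequenced from strand-specific libraries on a DNBSEQ instrument, per the labels' protocols. The authors deposited raw counts (whole numbers) of 27671 gene symbols in 11 libraries. Per the submitters' processing notes the build was GRCh37, and DESeq and DESeq2 were used. Which aligner, counting program, strand setting and annotation were used is not given in the sources used here. The authors' tables of fold changes were not used here.

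Counts were tested with edgeR 4.0.16 in R 4.3.3 (filterByExpr, which left 15591 genes, TMM scaling, glmQLFit and glmQLFTest on the means of the 4 groups in 1 fit of all 11 libraries). Contrasts were A8 with ISRIB against DMSO with ISRIB, A8 against DMSO, their difference (the interaction) and their average. A gene was called at a Benjamini-Hochberg adjusted p under 0.05 over all genes tested. Standard errors and 95% intervals come from the quasi-likelihood F test, and levels are TMM-scaled CPM. The scripts were tested on simulated data. Replicates differed by more than sampling noise (chi-square per degree of freedom 7.55 to 38.3). The columns of DMSO with ISRIB carry other numbers than the titles, so they were given to the group only.

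The genes named are those called in A8 with or without ISRIB, the 10 largest rises and 10 largest falls with ISRIB (mean log2 CPM of at least 1, no overlap, unadjusted p under 0.05), those called in the average with no overlap in either state, the leading members of each list, and 18 stress, antiviral and arrestin genes. Other list members and genes are named with values because the text describes their list. The comparison, the genes named and the 39 lists (562 members, 561 matched) were chosen with earlier results of these data known. Alternatives were DESeq2 1.42.0 (its size factors and its Wald test), other filters on low counts, a robust fit, fits restricted to the groups compared, fits without each library in turn, and, chosen after seeing the data, removal of each library's GC trend by lowess (GC of GENCODE transcripts). One gene that the naming rule selects is not reported here.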

Additional observations from a re-analysis of the deposited data

Results flagged for a closer look

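For 4 genes the effect of A8 under ISRIB differed from that without it by a test of the difference itself, the interaction term in edgeR. It was higher with ISRIB by 0.63 on the log2 scale for HSPA1A and by 0.64 for HSPA1B (adjusted p = 0.0243 each), whose fold changes were 0.07 and 0.09 with ISRIB and -0.55 each without it. It was lower with ISRIB for PSAT1, by a difference of -0.62 (adjusted p = 0.0243), and for SLC6A9, by one of -0.95 (adjusted p = 0.0443). No interaction was called without A8 1 or 2, A8 with ISRIB 1 or 2, DMSO 2 or DMSO with ISRIB b, and with the GC trend removed 0 were called higher and 1 lower. The 4 calls were kept without A8 with ISRIB 3, without A8 3 and without DMSO 3. Groups of 2 or 3 libraries are too small for a search for outlying samples.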

How the results depend on the processing

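Counts of called genes moved by over 1.5 times with several settings, given here as higher and lower. With ISRIB there were 1 and 1, against 43 and 18 in the DESeq2 Wald test, 28 and 13 with no filter on low counts, 4 and 2 in the robust fit, 0 and 1 with only the groups compared, and 0 and 1 with the GC trend removed. Leaving out 1 library gave 0 to 5 higher and 0 to 8 lower. Without ISRIB there were 13 and 9, against 59 and 58 in DESeq2, 59 and 45 with no filter, and 10 to 33 and 3 to 17 without 1 library. The interaction gave 2 and 2, against 34 and 9 in DESeq2, 18 and 8 with no filter, 0 and 1 with the GC trend removed, and 0 to 3 and 0 to 3 without 1 library. The average gave 22 and 15, against 90 and 51 in DESeq2, 96 and 42 with no filter, and 5 to 56 and 5 to 47 without 1 library. DESeq2 size factors and a minimum of 50 counts kept every one of these 8 counts within 1.5 times.

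No paired analysis was possible for the comparison under ISRIB, the interaction or the average because the columns of DMSO with ISRIB carry no title number. For A8 against DMSO a replicate block gave 11 genes higher and 4 lower. Over 9 same-numbered pairs the correlation of deviations ran from -0.13 to 0.14, and not every library went best with its own number. The deviations also hold each library's GC trend, so they cannot tell whether same-numbered libraries share a culture or a day.

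Fold changes near 0 turned sign when 1 library was left out. With ISRIB they ran from -0.075 to 0.039 for CARS, -0.044 to 0.134 for CTH, -0.295 to 0.187 for DDX58, -0.023 to 0.058 for DNAJB1, -0.0066 to 0.070 for LOC101927883, -0.024 to 0.059 for MTHFD2, -0.047 to 0.121 for SLC6A9 and -0.0010 to 0.152 for TRIB3. Interactions ran from -0.228 to 0.444 for NUPR1 and -0.070 to 0.071 for SRSF11. With the GC trend removed DNAJB1 was at -0.0079, SLC6A9 at -0.038 and TRIB3 at -0.029 with ISRIB, and the interactions of NUPR1 and TPRA1 at -0.057 and -0.050. In these alternatives no gene called with ISRIB changed sign, and the causes of the moves were not tested. At these depths transcripts under 1 CPM, such as NUPR1 and CYP1A1, have wide intervals.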

Other observations

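Other lists gave single values under ISRIB. LONP1, a protease of the mitochondrial matrix, had a log2 fold change of 0.21 (0.12 without ISRIB), while the mitochondrial chaperone HSPA9 had -0.16 and the inner membrane protease YME1L1 -0.24 (-0.01 and 0.06 without ISRIB). The metallothionein MT1X had 0.38 with ISRIB and 0.24 without it. Of the replication genes, CDT1 (0.27) and E2F1 (0.23) were higher and PCNA (-0.21), RRM2 (-0.18), CDC6 (-0.18), MCM4 (-0.13) and MCM6 (-0.13) lower at an unadjusted p under 0.05 (4.75% and 3.57% of all genes were), and none of these genes was called. Among the subunits of eIF2 and of eIF2B, the target of ISRIB, 7 of 8 were below 0 (49.5% of all genes were), with a median of -0.07 (-0.12 without DMSO with ISRIB a, -0.04 without b), and EIF2S1 (-0.18) had an unadjusted p under 0.05. Genes of hypoxia had a median of -0.10 (-0.05 without DMSO with ISRIB a) with 10 of 13 below 0, and none of them had an unadjusted p under 0.05.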
